A study of Mus musculus with 4 samples.

Results

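A group of 10 transcription factor genes that mark the hormone lineages of the pituitary was followed across cell classes of the whole mouse gland. They were Pou1f1, Tbx19, Nr5a1, Gata2, Pax7, Neurod1, Neurod4, Foxl2, Isl1 and Insm1, chosen by name, and make up 10 of the 55357 genes in the deposited table. The series holds 4 droplet single-cell RNA libraries from male mice, 2 after a high-fat diet (HFD) and 2 after a normal diet (ND). Feeding began at 4 weeks of age and went on for 12 weeks, and every library pools 3 pituitaries. No strain is named. Lbt2 is entered as cell line and gonadotroph as cell type for every library, whereas tissue and protocol describe the whole gland, and cells with the hormones of all the pituitary cell types were present in the matrix.

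All libraries came in 1 matrix of unique molecular identifiers (UMIs, 1 per captured RNA molecule). The barcodes carry suffixes 1 to 4, which no label explains, so no cell could be given a diet, no HFD against ND comparison was made, and the matrix was treated as 1 sample without a test. The 4 numbers are called sets 1 to 4, and each value is given pooled and by set. The sets held 81621358 to 92665029 UMIs. Of 40406 barcodes, 39839 passed the filters, and 4253 of these were called doublets and left out. Between sets, 155 barcode sequences occurred in 2 sets and 1 in 3 sets.

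The anterior pituitary makes growth hormone (Gh) in somatotrophs, prolactin (Prl) in lactotrophs, thyrotropin (Tshb with Cga) in thyrotrophs, the gonadotropins (Lhb or Fshb with Cga) in gonadotrophs and corticotropin, cut from the Pomc precursor, in corticotrophs. The intermediate lobe makes melanotropin from the same precursor in melanotrophs. In development 3 factors divide these cells: POU1F1 (PIT-1) for somatotrophs, lactotrophs and thyrotrophs, TBX19 (TPIT) for the Pomc cells and NR5A1 (SF-1) for gonadotrophs. PAX7 sets the melanotroph choice among Pomc cells, GATA2, FOXL2 and ISL1 act in the cells that make Cga, NEUROD1 and NEUROD4 are basic helix-loop-helix factors, and INSM1 is a zinc finger factor of endocrine cells in general.

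Classes were set by the share of a cell's UMIs that came from hormone genes, and by marker lists for support cells. No factor among the 10 was used. A class carries the name of the cell type whose hormone or markers define its gate. There were 14024 somatotrophs, 6892 lactotrophs, 389 thyrotrophs, 594 gonadotrophs, 1874 corticotrophs, 656 melanotrophs, 1347 stem or folliculostellate cells, 720 endothelial cells, 1354 macrophages, 317 T or NK cells and 337 fibroblasts. These 11 classes had at least 20 cells in every set and were compared. A further 82 cells passed the Gh and Prl gates together, after 485 of 567 such cells had been called doublets. Another 3932 cells (9.87% of the filtered barcodes) passed no gate. Some cells lay close to the gates: 13 of 676 cells past the gonadotropin gate were within 25% above it, 17 of 456 for Tshb, 572 of 14504 for Gh, 299 of 7194 for Prl and 252 of 2757 for Pomc. Just below the gates lay 9, 15, 396, 226 and 230 cells in the same order. Some class sizes moved with the gates. At 2 times and 0.5 times the shares there were 1243 and 2307 corticotrophs, 592 and 579 gonadotrophs, and 8117 and 2236 cells without a class. The gonadotrophs were the deepest class, with a median of 15149 UMIs a cell, and the T or NK cells a shallow one, with 2019.

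Levels are counts per 1000000 UMIs (CPM) summed over a class, with exact Poisson intervals at 95% that cover counting error only. For 8 of the 10 factors the same class had the highest CPM in all 4 sets, where 43.4% of 16544 genes with enough counts met the same rule. The classes were lactotroph for Pou1f1 and Neurod4, corticotroph for Tbx19 and Neurod1, gonadotroph for Nr5a1, thyrotroph for Gata2 and Insm1, and melanotroph for Pax7. Of all genes, 1.6% led in lactotrophs, 3.76% in corticotrophs, 4.35% in gonadotrophs, 4% in thyrotrophs and 1.92% in melanotrophs. All these shares take in genes with as few as 20 counts in their top class. The factors had 252 (Insm1) to 26973 (Pou1f1) counts there, so the shares are not a background matched for counts. Foxl2 and Isl1 had no single leading class.

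**Figure D1:**
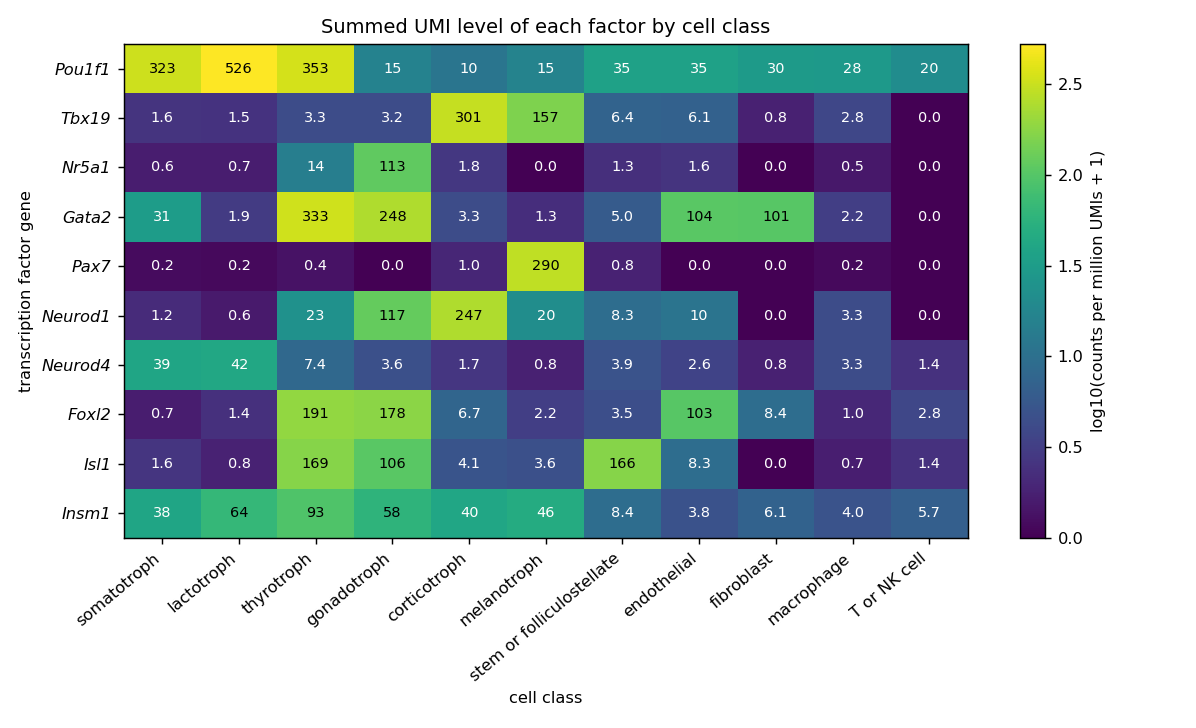
Summed level of each factor (rows) in the 11 compared classes (columns), printed as CPM and coloured as log10(CPM + 1). Pax7 stands at 290 in melanotrophs and below 1 in every other class, while Gata2, Foxl2 and Isl1 each reach over 100 in 3 or more classes.

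Pou1f1, the factor that switches on Gh, Prl and Tshb, was high in the 3 classes that make those hormones. Its level was 526 CPM in lactotrophs (519 to 532), with 564, 462, 486 and 594 in sets 1 to 4. In thyrotrophs it was 353 CPM (331 to 377), with 442, 304, 334 and 379 by set. In somatotrophs it was 323 CPM (320 to 326), with 383, 323, 278 and 315 by set. Lactotrophs were highest in each set, and the sets of thyrotrophs and somatotrophs overlapped. The order of those 2 classes turned with the scale, because Gh took a median of 43.3% of a somatotroph's UMIs: with the 7 hormone genes left out of the library sizes, Pou1f1 stood at 698 CPM in lactotrophs, 585 in somatotrophs and 391 in thyrotrophs. The 82 cells with Gh and Prl together had 590 on that scale (522 to 666).

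Outside these classes Pou1f1 lay between 10.5 CPM in corticotrophs and 35.1 in endothelial cells. In T or NK cells, which should lack it, the level was 19.8 CPM from 14 UMIs. To compare cells at equal total depth, each was thinned to 3000 UMIs, hormone UMIs included, which left 22337 cells of the hormone classes. A Pou1f1 UMI was then found in 76.4% of lactotrophs (exact binomial interval 75.3 to 77.4), 59.8% of somatotrophs (58.9 to 60.6) and 56.5% of thyrotrophs (51.2 to 61.7). Macrophages, another class that should lack the factor, had one in 6.14% of cells (4.77 to 7.76). Gonadotrophs (5.32%), corticotrophs (2.82%) and melanotrophs (4.63%) were no higher. Macrophages also held more Gh, at 20262 CPM against 12459, 12791 and 12804 in those classes. The source of these Pou1f1 shares was not tested. The median depth before thinning was 4001 UMIs in macrophages and 7268 in lactotrophs. Unthinned, 91.8% of lactotrophs and 88.0% of somatotrophs had a Pou1f1 UMI. The intervals of somatotrophs and thyrotrophs overlap at 3000 UMIs, of which the hormones leave each class a different part. When cells were instead thinned to 1500 hormone-free UMIs, the share was 62.8% of lactotrophs (61.6 to 63.9), 56.8% of somatotrophs (55.9 to 57.6) and 40.5% of thyrotrophs (35.5 to 45.7), so these intervals were apart, and it was 3.27% of macrophages (2.37 to 4.39).

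The gene's own promoter and that of Prl are shown because both hold the POU1F1 motif ATGNATA, searched on both strands of the 250 bases before the start. The motif was present in 7.92% of 32851 mouse promoters of that length. Sequences are from RefSeq on GRCm38.p6, 5′ to 3′ on the gene's strand, with the matches of the motif each promoter is shown for in capitals. Promoters were found for 8 of the 10 factors (not Nr5a1 and Insm1) and 6 of the 7 hormone genes (not Gh). Each was searched for this motif and for the other motifs named below. Tshb had no match of ATGNATA, and Cga and Fshb had no match of any motif. Among the factors only Pou1f1 and Tbx19 had a match, in Tbx19 of AGATAA, a motif of the GATA factors. Pou1f1 lies at chr16:65520262-65520511 (plus strand), with the match beginning at position -57 from the start. Prl lies at chr13:27057320-27057569 (plus strand), with matches at -148 and, on the other strand, at -47. Prl also holds CAGATG, the motif used for Pomc, at -7.
Pou1f1: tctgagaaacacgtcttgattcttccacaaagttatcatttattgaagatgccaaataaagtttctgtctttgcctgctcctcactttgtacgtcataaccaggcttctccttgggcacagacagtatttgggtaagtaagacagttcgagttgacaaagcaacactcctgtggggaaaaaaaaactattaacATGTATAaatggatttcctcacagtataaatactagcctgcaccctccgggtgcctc
Prl: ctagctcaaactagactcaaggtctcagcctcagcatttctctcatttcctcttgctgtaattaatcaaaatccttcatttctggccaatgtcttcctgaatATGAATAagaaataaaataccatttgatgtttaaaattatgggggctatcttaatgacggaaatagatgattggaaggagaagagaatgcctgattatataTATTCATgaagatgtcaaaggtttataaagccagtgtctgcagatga

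Neurod4 had its levels in the same branch. It stood at 41.8 CPM in lactotrophs (40.1 to 43.6), with 38.5, 41.4, 45.4 and 41.2 by set, and at 38.5 CPM in somatotrophs (37.5 to 39.5), with 38.2, 36.6, 40.04 and 39.0. The lead of lactotrophs was a factor of 1.09 and belonged to the scale: without hormone genes in the library sizes, somatotrophs led in all 4 sets, at 69.9 against 55.5 CPM. Thyrotrophs had 7.40 CPM and every other compared class under 4 CPM. In thinned cells a Neurod4 UMI was present in 11.5% of somatotrophs and 11.3% of lactotrophs, whose intervals overlap, against 0.851% of macrophages. At 1500 hormone-free UMIs a cell the intervals were apart, with 9.77% of somatotrophs (9.26 to 10.3), 7.33% of lactotrophs (6.71 to 7.98) and 0.467% of macrophages.

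Tbx19, which turns on Pomc, was high in the 2 Pomc classes. In corticotrophs it stood at 301 CPM (292 to 310), with 361, 300, 217 and 313 by set, so set 3 was the lowest. In melanotrophs it stood at 157 CPM (148 to 167), with 163, 157, 140 and 158 by set. The groups did not overlap, and corticotrophs were 1.91 times as high. The next class, stem or folliculostellate cells, had 6.36 CPM, and T or NK cells had no UMI. Thinned cells with a Tbx19 UMI made up 58.1% of corticotrophs (55.7 to 60.5), 33.6% of melanotrophs (29.8 to 37.5) and 0.851% of macrophages.

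Neurod1, known as a partner of TBX19 at the Pomc promoter, was highest in corticotrophs, at 247 CPM (239 to 256), with 229, 212, 306 and 278 by set. Gonadotrophs came next, at 117 CPM (110 to 125), with 97.0, 88.3, 172 and 149 by set. In both classes sets 3 and 4 lay above sets 1 and 2, and the 2 classes did not overlap. Thyrotrophs had 22.9 CPM, and 5.08% of thinned thyrotrophs held a UMI against 0.567% of macrophages. The melanotroph level of 20.5 CPM was uneven, with 3.92, 63.1, 17.9 and 22.4 CPM in sets 1 to 4. In set 2 a single cell held 30 of the 68 Neurod1 UMIs of that class. The corticotroph receptors Crhr1 and Avpr1b, which took part in the gate, stood in those melanotrophs at 26.0 and 4.64 CPM in set 2 and at 7.84 and 1.07 CPM in set 1. Their part in the Neurod1 level was not tested.

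Pax7 was the most narrowly placed factor by counts: 1852 of its 1917 UMIs in the compared classes were in melanotrophs. The level there was 290 CPM (277 to 303), with 323, 231, 270 and 282 by set. Corticotrophs, the other Pomc class, had 0.983 CPM from 14 UMIs, and gonadotrophs, endothelial cells, fibroblasts and T or NK cells had none. A Pax7 UMI was found in 58.0% of thinned melanotrophs (54.0 to 62.0) and 0.176% of corticotrophs. The melanotroph gate used Pcsk2, Oacyl and Esm1. With melanotrophs taken by a Pomc share of at least 12% alone, the Pax7 level was 199.97 CPM and still highest in that class in every set.

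The Pomc promoter is shown because it holds CAGATG, an E-box of the kind that basic helix-loop-helix factors bind, at position -147. That motif was present in 14.4% of promoters. Pomc also holds AAGGTCA, the NR5A1 half-site, at -63, left in lower case. Pomc lies at chr12:3954695-3954944 (plus strand).
Pomc: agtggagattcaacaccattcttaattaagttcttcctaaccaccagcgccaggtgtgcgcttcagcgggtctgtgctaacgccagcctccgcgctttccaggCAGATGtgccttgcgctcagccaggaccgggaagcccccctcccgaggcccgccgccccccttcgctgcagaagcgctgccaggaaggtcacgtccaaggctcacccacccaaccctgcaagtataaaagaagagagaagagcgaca

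Nr5a1, the gonadotroph lineage factor, stood at 113 CPM in gonadotrophs (106 to 121), with 109, 109, 134 and 110 by set. Thyrotrophs had 13.7 CPM (9.64 to 18.9), with 8.21, 20.2, 12.4 and 6.34 by set, so gonadotrophs were 8.28 times as high and the sets did not overlap. Every other compared class had under 2 CPM, and melanotrophs had no UMI, which allows up to 0.469 CPM. Thinned cells with an Nr5a1 UMI were 29.4% of gonadotrophs (25.6 to 33.4), 2.26% of thyrotrophs (0.981 to 4.40) and 0.284% of macrophages. Thyrotrophs held 9.99 CPM of Gnrhr, the gonadotropin-releasing hormone receptor, and 84.7 CPM of Fshb, against 1061 and 10198 CPM in gonadotrophs. The part of such cells in the Nr5a1 level of thyrotrophs was not tested. The Lhb promoter is shown because it holds AAGGTCA, the NR5A1 half-site that Pomc also holds, on the other strand at -129, as 4.08% of promoters did in either orientation. Lhb lies at chr7:45420696-45420945 (plus strand).
Lhb: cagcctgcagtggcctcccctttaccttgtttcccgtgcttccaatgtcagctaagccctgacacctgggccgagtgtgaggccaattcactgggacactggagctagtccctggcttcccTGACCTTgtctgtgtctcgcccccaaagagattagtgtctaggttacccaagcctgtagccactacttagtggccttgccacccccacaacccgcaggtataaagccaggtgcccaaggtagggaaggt

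Gata2, Foxl2 and Isl1 were shared by the 2 classes that make Cga, each with at least 1 other class outside them. Gata2 stood at 333 CPM in thyrotrophs (311 to 355), with 309, 315, 400 and 336 by set, and at 248 CPM in gonadotrophs (238 to 259), with 193, 266, 295 and 191. Endothelial cells had 104 CPM and fibroblasts 101. Somatotrophs had 31.3 CPM (30.4 to 32.2), with 30.7, 32.2, 34.5 and 27.6 by set, whereas lactotrophs had 1.95 CPM (1.59 to 2.37), with 1.31, 3.14, 1.87 and 1.66. The 2 large POU1F1 classes were therefore apart in Gata2 in each set. In thinned cells 8.73% of somatotrophs (8.25 to 9.23) and 0.503% of lactotrophs (0.344 to 0.709) had a Gata2 UMI, and the lactotroph share was no higher than the 0.662% of macrophages. At 1500 hormone-free UMIs a cell the shares were 7.91% and 0.378%. The Tshb promoter is shown because it holds AGATAA, a motif of the GATA factors, at -58, as 9.99% of promoters did. Tshb lies at chr3:102782715-102782964 (minus strand).
Tshb: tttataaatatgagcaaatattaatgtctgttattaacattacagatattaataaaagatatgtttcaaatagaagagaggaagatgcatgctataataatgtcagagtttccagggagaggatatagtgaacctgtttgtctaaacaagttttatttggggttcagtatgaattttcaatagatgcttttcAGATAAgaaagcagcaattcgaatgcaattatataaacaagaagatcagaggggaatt

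Foxl2, a forkhead factor needed for Fshb, stood at 191 CPM in thyrotrophs (175 to 208), with 186, 179, 220 and 197 by set, and at 178 CPM in gonadotrophs (169 to 187), with 184, 201, 157 and 141. Gonadotrophs were higher in set 2 and thyrotrophs in the others, and the 2 intervals overlap. Endothelial cells had 103 CPM (92.1 to 115), with 119, 106, 99.8 and 84.5 by set, and a Foxl2 UMI in 24.4% of thinned cells (20.04 to 29.1), against 0.189% of macrophages. The hormones of the Cga classes were low in those endothelial cells, with 352 CPM of Cga against 63257.5 in thyrotrophs and 16.0 CPM of Tshb against 12359. Thyrotrophs were gated on both genes and endothelial cells passed no hormone gate, so the gates set this contrast. Plvap, an endothelial marker used in the gate, stood at 3554 CPM in endothelial cells. The part of Cga cells in the endothelial Foxl2 level was not tested. Endothelial Isl1 was 8.30 CPM, of which set 1 held most, at 26.4 CPM.

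Isl1, a LIM homeodomain factor, stood at 169 CPM in thyrotrophs (154 to 185), with 166, 168, 168 and 176 by set, and at 166 CPM in stem or folliculostellate cells (159 to 174), with 184, 136, 181 and 168. The order of these 2 classes changed between sets. Gonadotrophs had 106 CPM (99.2 to 113), with 103, 99.9, 115 and 114 by set, below both in every set. All other classes had under 9 CPM. A thinned cell held an Isl1 UMI in 41.2% of thyrotrophs, 33.6% of stem or folliculostellate cells and 26.8% of gonadotrophs.

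Insm1 was the factor common to hormone cells. Its level was 93.2 CPM in thyrotrophs (82.1 to 106), 64.1 in lactotrophs, 58.4 in gonadotrophs, 46.1 in melanotrophs, 39.8 in corticotrophs and 38.5 in somatotrophs. The support classes ran from 3.83 CPM in endothelial cells to 8.36 in stem or folliculostellate cells. By set thyrotrophs had 122, 78.2, 89.1 and 97.3 CPM. Lactotrophs, the next class, had 66.4, 55.6, 67.7 and 64.7, below all sets of thyrotrophs. Gonadotrophs, the third, had 79.1, 41.5, 81.7 and 70.2, which overlapped both. With hormone genes left out of the library sizes, somatotrophs moved from the lowest hormone class to the third, at 69.9 CPM, and corticotrophs were the lowest, at 43.4.

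**Figure D2:**
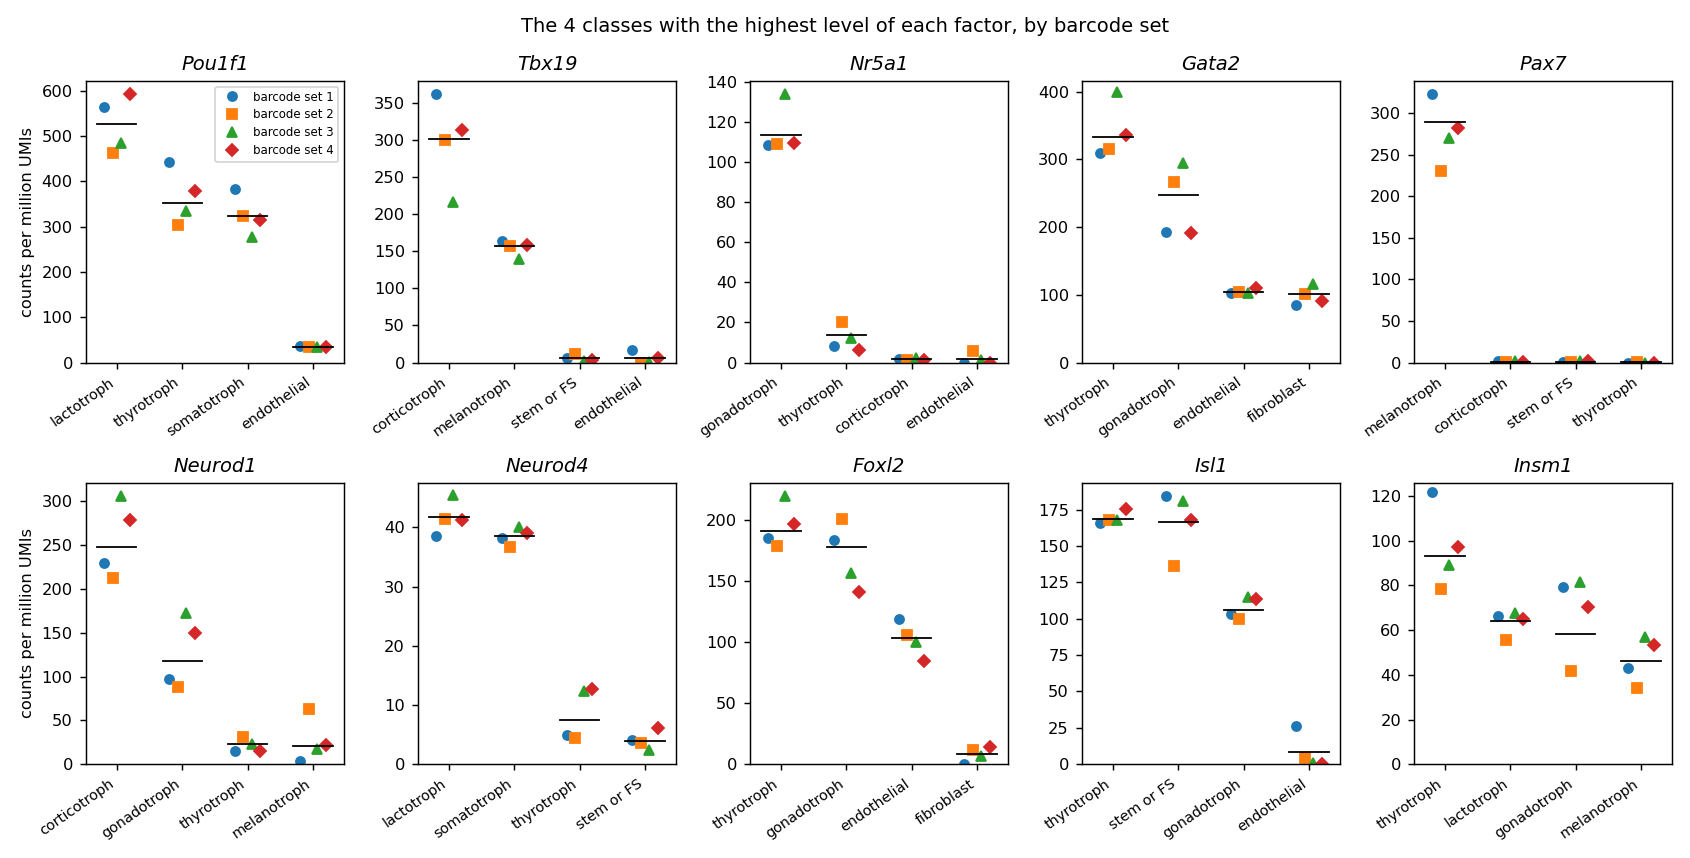
Level of each factor (vertical axes, CPM, starting at 0) in the 4 classes where it was highest, with 1 marker for each barcode set and a line at the pooled level. The Foxl2 points of thyrotrophs and gonadotrophs overlap, as do the Isl1 points of thyrotrophs and stem or folliculostellate (stem or FS) cells, whereas the Tbx19 points of corticotrophs and melanotrophs do not.

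**Figure D3:**
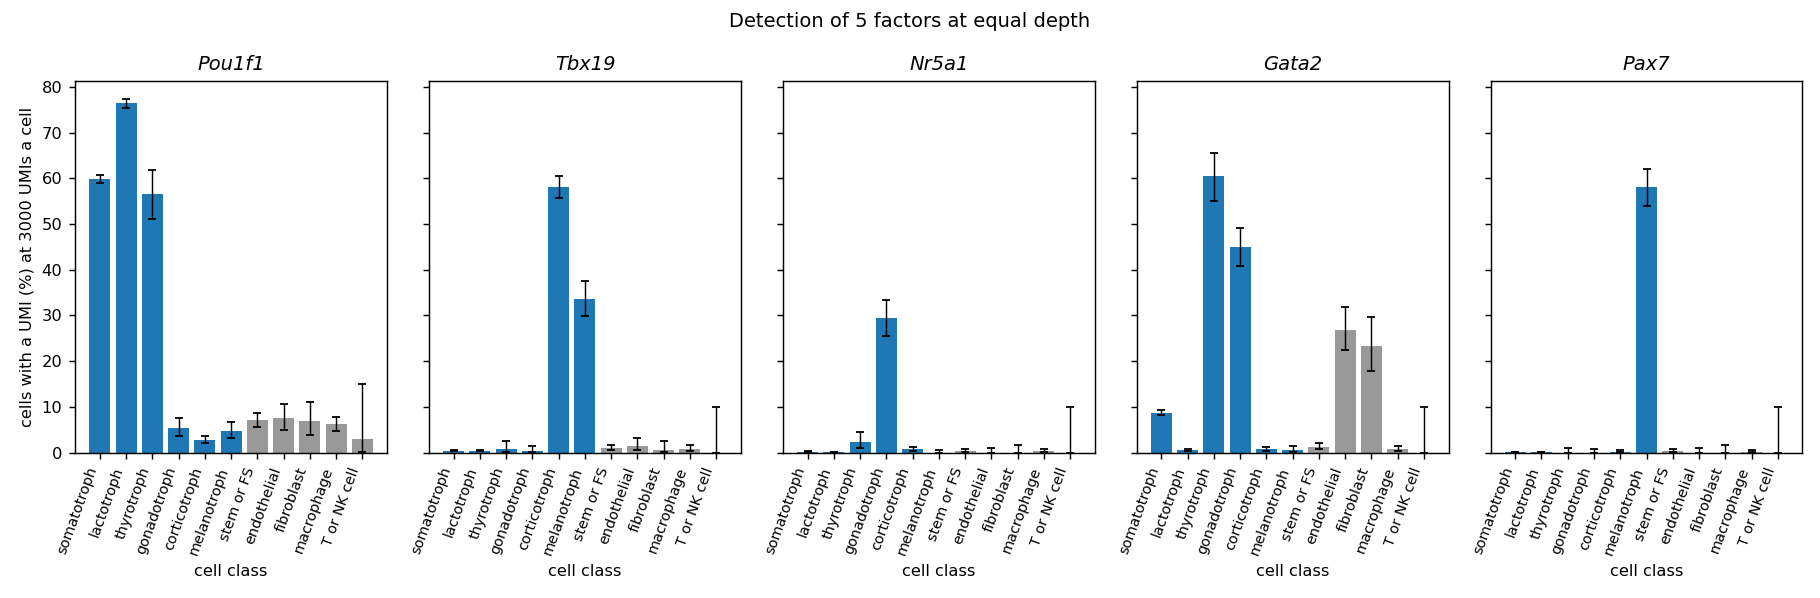
Share of cells with at least 1 UMI of 5 factors when every cell is thinned to 3000 UMIs, with hormone classes in blue, support classes in grey and bars for exact 95% binomial intervals. Pou1f1 is found in 56.5% to 76.4% of cells in 3 classes and in 2.82% to 7.48% of cells elsewhere.

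Other regulators of pituitary development were read by the same rule from a list of 38, of which 35 had at least 20 counts in their top class. One class led in all sets for 26 of them, against the same 43.4% of all genes, which are not matched for counts. Of the 26, stem or folliculostellate cells led for 13, gonadotrophs for 5, thyrotrophs for 2 and T or NK cells for 2. Lactotrophs, corticotrophs, melanotrophs and fibroblasts led for 1 each. Sox2 and Sox9, among these 13, were part of the gate of that class, so their lead was set by it. Stem or folliculostellate cells led for 5.81% of all genes. The 3 with the most counts were Six6, at 598 CPM in lactotrophs, and Nr4a1 and Six3, at 1453 and 804 CPM in stem or folliculostellate cells. Named after their values were seen, the 5 in gonadotrophs were Lhx4, Hesx1, Nr0b1, Esr1 and Tle5. The lead of Esr1 was 1.04-fold and turned with the scale: without hormone genes in the library sizes, lactotrophs stood at 280 CPM and gonadotrophs at 253. On that scale Six3 also had no class that led in all sets, with 826 CPM in stem or folliculostellate cells and 753 in melanotrophs. Nr0b1 (DAX-1), a nuclear receptor that represses NR5A1, stood at 60.1 CPM in gonadotrophs and 1.11 in thyrotrophs, the next class.

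Single cells were then read for pairs of factors. Among the 22337 thinned cells of the hormone classes, 63.4% had a UMI of Pou1f1, Tbx19 or Nr5a1, and 127 cells, or 0.569% (0.474 to 0.676), had UMIs of at least 2 of the 3. By set the share was 0.545%, 0.722%, 0.328% and 0.686%. Among thinned cells called doublets it was 3.27% (2.74 to 3.87). Pou1f1 and Tbx19 were together in 84 cells, 0.376%, where the product of their single shares was 3.28%. Pou1f1 and Nr5a1 were together in 39 cells, 0.175% against 0.544%, and Tbx19 and Nr5a1 in 8 cells, 0.0358% against 0.0543%. Of the somatotrophs 0.331% had at least 2 of these factors, of the lactotrophs 0.361%, of the corticotrophs 2.05% and of the gonadotrophs 2.57%. All 14 such gonadotrophs held Nr5a1 with Pou1f1, and 29 of the 35 such corticotrophs held Tbx19 with Pou1f1. The share of Pou1f1 in both classes did not exceed that of macrophages, and its source in these cells was not tested.

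Over all hormone cells several pairs of factors with a common class were far above the product. Nr5a1 and Foxl2 were together in 77 cells, 17.4 times the product, Foxl2 and Isl1 in 131 cells, 16.3 times, Tbx19 and Neurod1 in 431 cells, 7.90 times, and Tbx19 and Pax7 in 116 cells, 5.58 times. Gata2 and Pax7 were together in 2 cells, 0.0761 times the product, and Nr5a1 and Pax7 in none. Inside a class the shares lay close to the product. Of the 47 pairs with at least 20 expected cells in a class, the product lay inside the interval of the observed share for 46, and the ratio ran from 0.787 to 1.36, whereas the same pairs over all hormone cells ran from 0.104 to 17.4. Corticotrophs held Tbx19 and Neurod1 together in 24.5% of cells (22.5 to 26.6) with a product of 24.5%. Melanotrophs held Tbx19 and Pax7 together in 18.8% of cells (15.8 to 22.2) with a product of 19.5%. Gonadotrophs held Nr5a1 and Foxl2 together in 13.2% of cells (10.5 to 16.3) with a product of 12.1%. The exception was Pou1f1 with Neurod4 in somatotrophs, 7.42% of cells (6.97 to 7.89) with a product of 6.86%. Within 1 class the interval also depends on how many cells the class has, and thyrotrophs had 354.

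**Figure D4:**
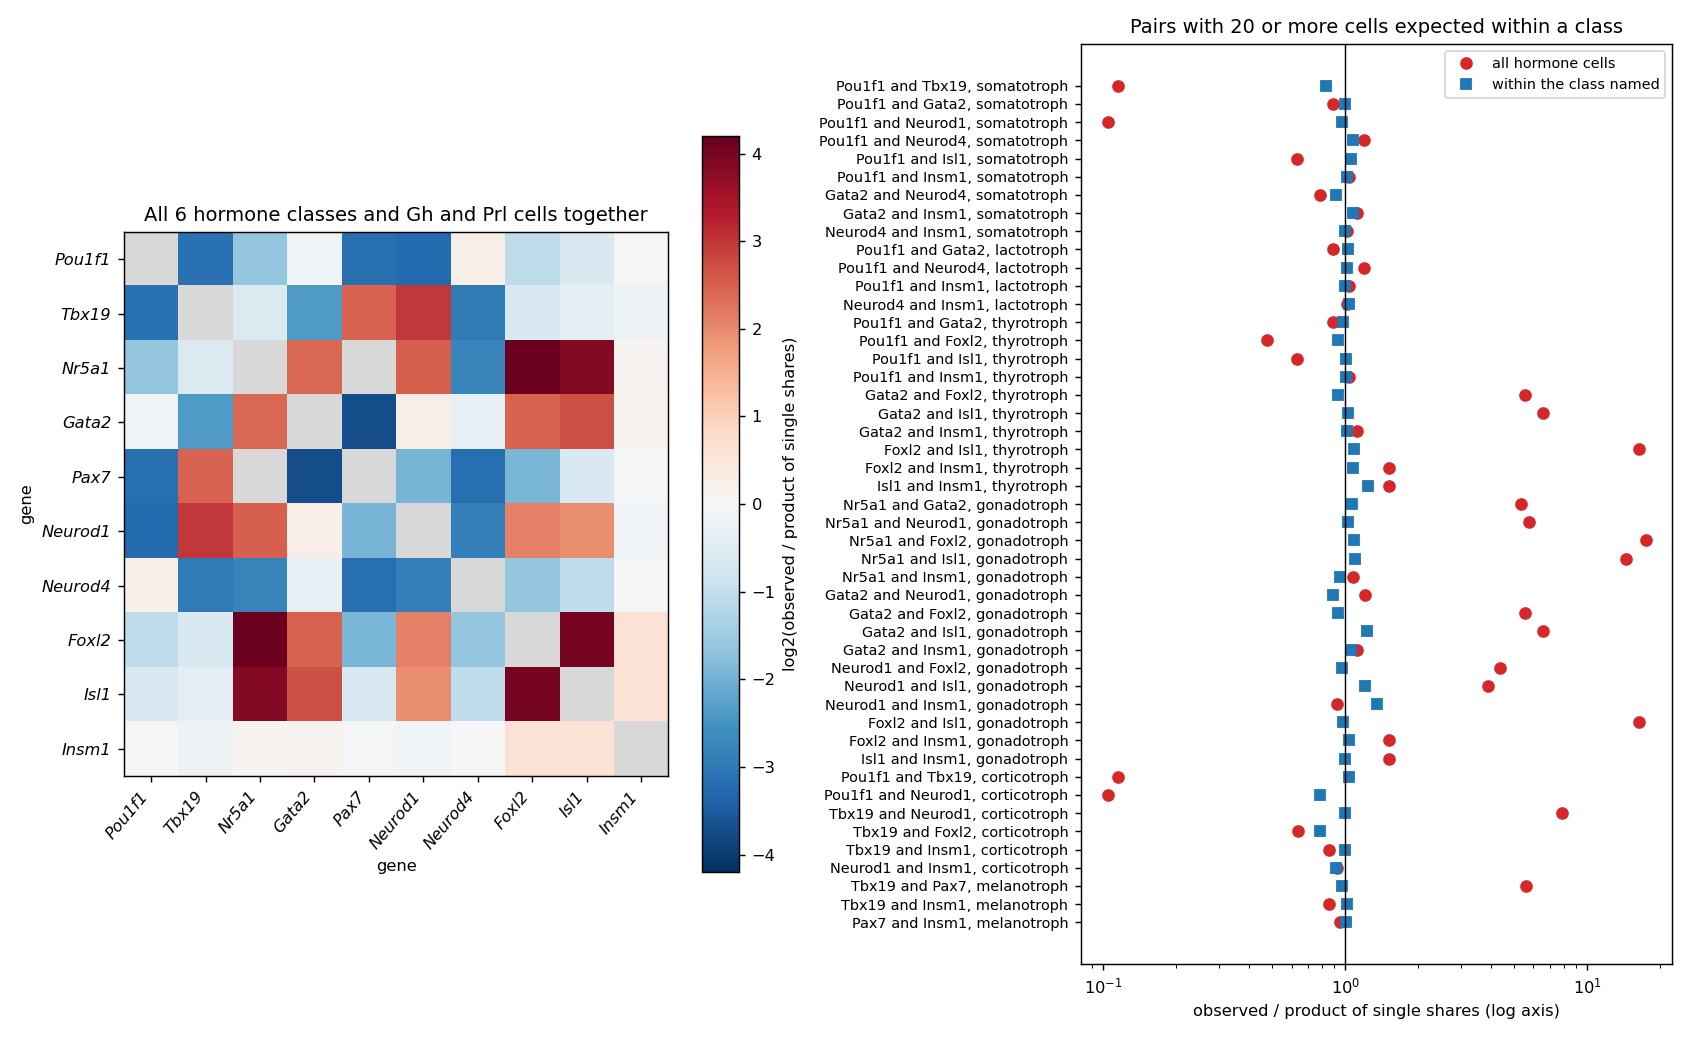
Left, log2 of the observed share of cells with both factors over the product of the single shares, for every pair over all hormone classes (grey where no cell had both, and on the diagonal). Right, the same ratio on a log axis for 47 pairs over all hormone cells (circles) and within the class named (squares). The squares lie between 0.787 and 1.36 and the circles between 0.104 and 17.4.

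Thyrotrophs and gonadotrophs were read for the joint presence of Gata2, Foxl2 and Isl1. All 3 were seen in 11.3% of 354 thinned thyrotrophs and 5.87% of 545 thinned gonadotrophs, and none of the 3 in 13.3% and 24.0%. In endothelial cells no cell had all 3, and 24 of 361 had Gata2 and Foxl2 together, 6.65% (4.31 to 9.73) with a product of 6.55%.

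Within each class the factors were also set against the hormone the class makes. Cells were ordered by their share of the class hormone and divided into 3 equal groups, called tertiles, and levels are CPM with hormone genes left out of the library size (hormone-free CPM). Of 24 pairs of factor and class, 6 were higher in the third tertile than in the first in all 4 sets and 9 were lower. Over all classes and genes, 15.8% were higher and 17% lower in all sets. In gonadotrophs Gata2 went from 191 CPM (173 to 210) in the cells with the least Fshb and Lhb to 296 and then 352 (330 to 376) in those with the most. By set it was 107, 204, 244 and 145 in the first tertile and 256, 361, 436 and 316 in the third, so the groups did not overlap. Neurod1 ran the other way, from 204 CPM (186 to 224) to 115 and 99.0 (87.4 to 112), with 214, 170, 248 and 222 by set in the first tertile and 73.7, 80.5, 151 and 123 in the third. In this class 9.78% of 9929 genes were higher and 14.9% lower in all sets. Nr5a1 was 148 and 115 CPM, lower in all sets, and Foxl2 was 205 and 207. The median depth of these gonadotrophs went from 12694.5 to 17024 UMIs. Its part was not tested.

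Thyrotrophs with more Tshb had more Pou1f1, 507 CPM (459 to 559) in the third tertile against 337 (297 to 381) in the first, and less Gata2, 320 (282 to 361) against 438 (392 to 488). Both held in all 4 sets, as 9.29% of 6027 genes did upward and 9.23% downward. Pou1f1 in somatotrophs went from 540 to 619 CPM with the Gh share, higher in all 4 sets, as were 20.8% of genes. In lactotrophs Pou1f1 went from 680 to 715 with the Prl share, higher in 3 of 4 sets. The Pomc classes showed the reverse for their lineage factor. Tbx19 was 364 CPM (346 to 382) in the corticotrophs with the least Pomc and 289 (274 to 305) in those with the most. By set it was 458, 353, 239 and 403 CPM in the first tertile and 348, 288, 235 and 265 in the third. Set 3 was thus nearly level. In melanotrophs Tbx19 was 232 (209 to 256) and 159 (142 to 179), in both classes lower in all 4 sets. Such a direction was shown by 14.2% of genes in corticotrophs and 12% in melanotrophs. Pax7 in melanotrophs was 331, 419 and 346 CPM and without a common direction. Median depth rose from the first to the third tertile in each of these classes, in somatotrophs from 7036 to 12723.5 UMIs. The part of depth was not tested.

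**Figure D5:**
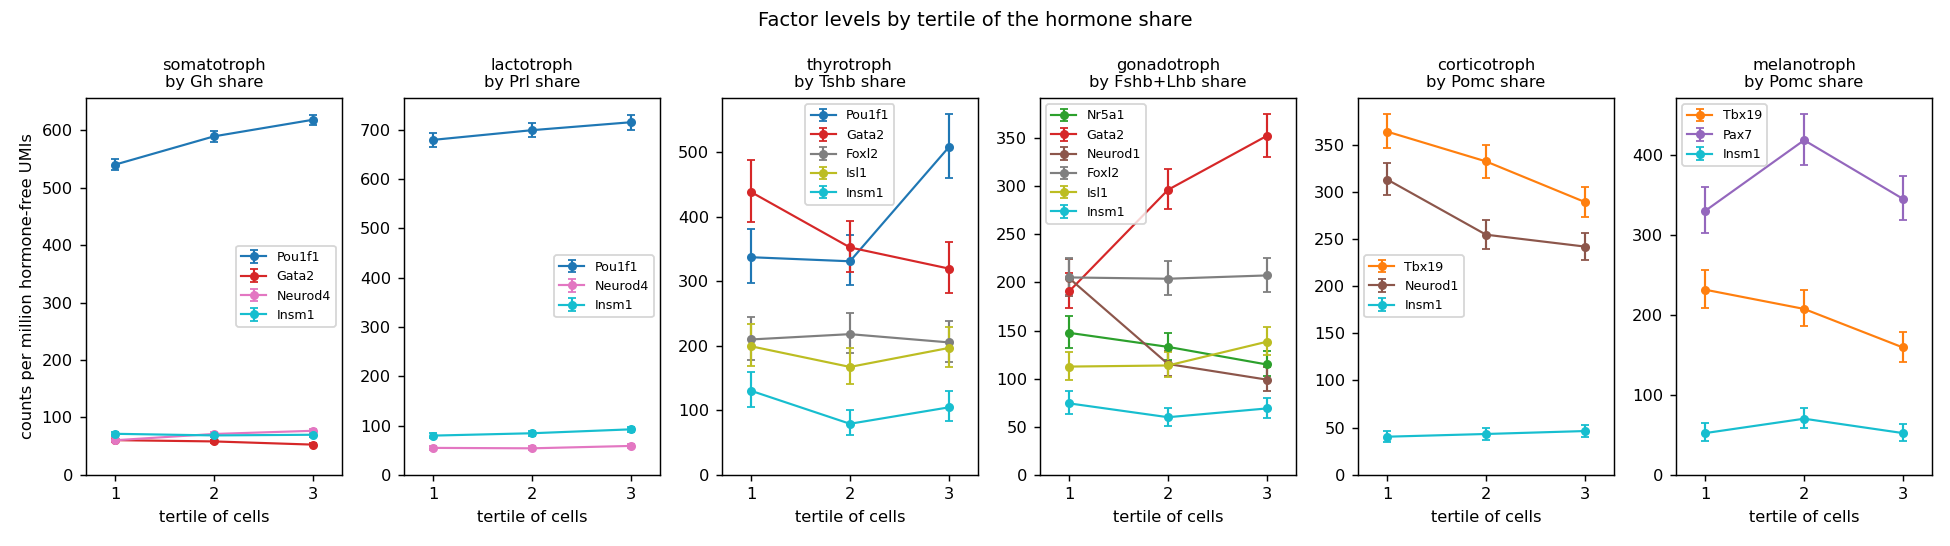
Level of the factors (vertical axes, hormone-free CPM, starting at 0) in 3 equal groups of cells ordered by the share of the hormone named in each panel, with exact 95% Poisson bars. In gonadotrophs Gata2 goes from 191 to 352 and Neurod1 from 204 to 99.0. In thyrotrophs Pou1f1 is 337, 331 and 507 in the 3 groups, and Gata2 goes from 438 to 320.

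Known target genes were compared between cells with and without a UMI of a factor, in 58 pairs of factor and target within a class. At 3000 UMIs a cell the intervals of the 2 levels did not overlap for 24 pairs, with the target higher in 12 and lower in 12. Among the higher, Pomc with Neurod4 in corticotrophs rested on 11 cells with a Neurod4 UMI and could not be read by set. The intervals cover counting error of UMIs pooled over cells, so small differences are called where counts are high. Cga with Isl1 in gonadotrophs was called higher at 117324 against 112917 hormone-free CPM. Pooled over the same comparisons, 0.799% of genes were higher and 0.781% lower by that rule. These shares take in all genes with at least 50 counts, far fewer than the hormone targets have, so they are not a matched background. This reading places hormones low by its construction, since a cell that spends more of 3000 UMIs on a hormone has fewer left for a factor. Gh was lower in somatotrophs with a Pou1f1 UMI in all 4 sets at 3000 UMIs, and higher in all 4 sets once the factor was read in 1500 hormone-free UMIs a cell, 827360 against 793686 hormone-free CPM, as were 10.5% of genes. On that second scale 40 pairs could be followed in all 4 sets. The target was higher in all sets for 5 and lower in all sets for 5, and the direction was mixed for 30. Pooled over genes, 6.6% were higher and 7.46% lower in all sets. The higher ones were Gh and Tshb with Pou1f1, Lhb and Fshb with Gata2, and Pcsk2 with Pax7. Gh, Tshb, Lhb and Fshb, like Pomc below, set the gates of their classes. Their pairs with a factor draw on the same cells and genes as the tertiles, so the 2 readings are not separate. Tshb stood at 17097 CPM in thyrotrophs with a Pou1f1 UMI and 11305 in those without, where 6.76% of genes were higher in all sets. Fshb stood at 13221 and 11038 CPM in gonadotrophs with and without Gata2, and Lhb at 1137 and 953, where 5.93% of genes were. Pcsk2, the prohormone convertase that cuts Pomc to melanotropin, stood at 2032 and 1578 CPM in melanotrophs with and without Pax7, where 6.74% were, and Pcsk2 had a part in that gate. The lower ones were Pomc and Drd2 with Tbx19 in melanotrophs, where 7.9% of genes were lower in all sets, Chga with Insm1 in somatotrophs (6.58%), and Chga and Chgb with Insm1 in lactotrophs (7.99%). Pomc stood at 221122 and 248482 CPM in melanotrophs with and without Tbx19. Chga, the granule protein chromogranin A, stood at 128 and 148 CPM in somatotrophs with and without Insm1. For Nr5a1, none of Gnrhr, Lhb, Fshb and Cga had the same direction in all sets. Gnrhr, the receptor gene it is known to activate, stood at 1279 and 1214 CPM.

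The genes most like each factor in level over the 11 classes were taken by Pearson's r of log2(hormone-free CPM + 1) from 7907 candidates. The classes share libraries and free RNA, and r is given as a description. Nr5a1 was most like Gnrhr (r = 0.971), Grem1 (0.961) and Tgfbr3l (0.927). Pax7 was most like Gulo (0.991), Ppp1r17 (0.986) and Oacyl (0.974), and Oacyl was part of the melanotroph gate. Tbx19 was most like Neto1 (0.935), Rims3 (0.926) and Crhr1 (0.926), and Crhr1 was part of the corticotroph gate. Pou1f1 was most like Chrnb3 (0.978), Frmd5 (0.941) and Tmem132b (0.933), and Insm1 like Lhfpl4 (0.986) and Tmem59l (0.986). Neurod4 was most like 5330429C05Rik (0.942), Acvr1c (0.919) and Frmd5 (0.905), Neurod1 like Khdrbs2 (0.946), Astn1 (0.899) and Rmst (0.891), and Isl1 like Tpgs2 (0.927), Tmod1 (0.883) and Ppp2r2b (0.866). The closest genes were less alike for Gata2, Csrp2 (0.846), Xpc (0.845) and Emc4 (0.831), and for Foxl2, Rgs4 (0.840), Plekha3 (0.840) and Gm49266 (0.827). Among the factors themselves Pou1f1 and Neurod4 were closest, with r = 0.895.

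Some factor genes overlap another gene in the GENCODE vM21 annotation, and how strand was treated in counting is not stated in these sources. Neurod1 overlaps Cerkl on the same strand and Gm26755 on the other. Cerkl had 26.0 CPM in corticotrophs and 18.3 in gonadotrophs, the 2 classes where Neurod1 was highest, so reads of these genes may not be fully separate. Nr5a1os and Foxl2os, on the strand opposite to Nr5a1 and Foxl2, had 18.2 and 17.1 CPM in gonadotrophs. Tbx19 overlaps the pseudogene Gm16550, with 1 UMI in somatotrophs and none in corticotrophs, and Pou1f1 overlaps Gm49631 on the other strand, with 2.57 CPM in lactotrophs. No overlapping gene was found for Gata2, Pax7, Neurod4, Isl1 and Insm1.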

How the data were processed

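The authors deposited raw counts of UMIs, 1 matrix for all libraries, made with droplet 3′ chemistry from enzyme-dissociated pituitaries. Cell Ranger 8.0.1 produced it, per the file headers, and Seurat is named too, per the submitters' processing notes. For counting, genome build and annotation are not given in the sources. From the authors' counts, barcodes with at least 500 UMIs, 250 genes and at most 25% mitochondrial UMIs were kept. Doublets were called by Scrublet in scanpy 1.11.5 in each set at a fixed score of 0.2, which marked 4253 barcodes, where its automatic thresholds marked 3633. Classes needed at least 1000 UMIs and a Gh share of 15%, Prl of 5%, Pomc of 1.5%, or Cga of 0.5% with 0.1% of Fshb plus Lhb or of Tshb. Melanotrophs needed 5% Pomc and more UMIs of melanotroph than of corticotroph markers. Support classes needed 5 UMIs over 3 genes of 1 list and 2 times those of any other. A gene led in a class when its CPM was highest there in all 4 sets, with at least 20 counts. Cells were thinned to 3000 UMIs for shares. Intervals are exact, at 95%, and cover counting error only. The named genes are all 10 factors, the 3 other regulators with the most counts in their leading class, and the 3 genes most alike per factor, apart from an item that is not reported here. The class gates and the leading rule were run on simulated data. The simulated cells came from the profiles of these same classes, and the simulated levels did not vary between sets beyond counting. These runs check the code and cannot show that the classes are right. The factors and lists were chosen with earlier results of these data known.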

Additional observations from a re-analysis of the deposited data

How the results depend on the processing

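No paired analysis was possible because barcodes are not tied to libraries, and the HFD against ND comparison was not run for the same reason. The number of factors with 1 leading class lay between 6 and 9, and leaving out each set gave 8 to 9. It was 6 with hormone gates at 2 times, where Neurod4 and Insm1 lost theirs. It was 9 without set 2, where Foxl2 was led by thyrotrophs. Neurod4 also had no leading class with called doublets kept, at 3000 UMIs a cell and with gates at 0.5 times. Insm1 also had none at 1500 hormone-free UMIs a cell. Leaving out each set moved the share of cells with 2 lineage factors between 0.518% and 0.653%. Over the same runs the count of targets higher with a factor lay between 10 and 12, of 58 pairs, or of 55 without set 3 or set 4. The count of other regulators with 1 leading class lay between 27 and 29. The share of cells with 2 lineage factors depended on depth and doublets: it was 2.30% without thinning, 0.277% when at least 2 UMIs of each factor were asked for without thinning, 0.757% with called doublets kept and, in an alternative chosen after seeing the data, 0.411% at 1500 hormone-free UMIs a cell. Without thinning, 29 targets were higher with a factor, against 12. The levels of the factors under alternatives numbered 150, and some of them could not move. Dropping the minimum of 20 counts changes no level, and taking melanotrophs by Pomc share alone changes none outside the Pomc classes. Of the 150, 110 stayed inside their counting interval, none moved by over 1.5 times, and another class came on top in 5. These were Neurod4 (somatotrophs, on both hormone-free scales), Foxl2 (gonadotrophs, at 1500 hormone-free UMIs) and Isl1 (stem or folliculostellate cells, with gates at 0.5 times and without set 2). Keeping hormone cells with support markers, and reading targets by set on hormone-free UMIs, were also chosen after seeing the data. Depth limits what a missing UMI shows: the thinned cells with a UMI of none of the 3 lineage factors ran from 23.5% of lactotrophs to 67.5% of gonadotrophs over the hormone classes.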

Other observations

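The 2513 thinned cells that passed no gate were read for the lineage factors. Of these, 1247 (49.6%, 47.6 to 51.6) had UMIs of Pou1f1 alone, 347 (13.8%) of Tbx19 alone, 35 (1.39%) of Nr5a1 alone and 30 (1.19%) of 2 or 3 of them, and 854 (34.0%) had none. Their median hormone shares differed with the factor. Median Pomc was 1.00% of UMIs in the cells with Tbx19 alone and 0.0503% in those with Pou1f1 alone. Median Cga was 0.893% in the cells with Nr5a1 alone and 0.0181% in those with Pou1f1 alone. The former is above the 0.5% of Cga that the gates asked for, while the same cells had a median Fshb of 0.0126% and a median Lhb and Tshb of 0, where the gates also asked for 0.1%. Median Prl was 0.703% with Pou1f1 alone and 0.133% with Tbx19 alone. Median Gh was 1.39% with Pou1f1 alone and 1.08% with Tbx19 alone. Their class was not tested further.

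In somatotrophs the 27 of 12702 thinned cells with Tbx19 alone had a median Gh share of 28.4%, against 43.8% in the 7552 cells with Pou1f1 alone. In the 157 thinned cells that passed gates of different hormones, 6.37% had 2 or 3 lineage factors (3.10 to 11.4), against 3.27% of called doublets (2.74 to 3.87).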
